A study of Mus musculus with 9 samples.

Results

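The 29 mouse genes described here make cholesterol, sense its level in the cell, or move it. They were chosen by name from the 56481 gene symbols of the deposited count table. They comprise 7 enzymes of the mevalonate and isoprenoid steps, 11 enzymes that turn farnesyl pyrophosphate into squalene and sterols, 5 genes of sterol sensing, 3 of sterol transport and efflux, and 3 that control lipoprotein receptors and the response to oxysterols. All 29 passed the filter on low counts (edgeR's default) in each comparison, and their counts lay between 14 and 24711 per library.

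Mouse cells of 3 kinds were sequenced, with 3 libraries each. Cells labelled induced corneal endothelial cells (iCEC) were derived from neural crest cells on gelatin and formed colonies by day 12. Their medium was DMEM/F12 with knockout serum replacement (KSR, 5%), non-essential amino acids, 2-mercaptoethanol and SB431542 (5 µM), which blocks TGF-β type I receptor kinases. Cells labelled primary corneal endothelial cells (pCEC) and primary neural crest cells (pNCC, from E13.5 embryos) were both kept in DMEM with 10% fetal bovine serum (FBS) and no inhibitor. The sources used here give neither the mouse strain nor the age of the pCEC donors, and do not say whether replicates were separate cultures or animals, so that a p value speaks of the spread among these libraries, which may be technical. Serum source, inhibitor and cell kind change together between iCEC and the other groups and cannot be told apart. The RNA is labelled polyA, except for pCEC 2 and 3, which are labelled total RNA.

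Cells make cholesterol from acetyl-CoA through mevalonate, isoprenoids and squalene, and they also take it up from serum lipoproteins. The transcription factor SREBP-2, encoded by Srebf2, drives the synthesis genes. When sterols are plentiful, INSIG proteins hold SREBP and its escort SCAP in the endoplasmic reticulum, and when sterols run low the complex moves to the Golgi, where SREBP is cleaved and released to the nucleus. Liver X receptors (LXR) respond to oxysterols in the opposite situation and raise genes of cholesterol export.

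Total counts ran from 27389292 to 47967113 per library, and levels are given as counts per 1e6 of that total (CPM), always in the order of replicates 1, 2 and 3. The labels were checked against marker genes. The summed level of 13 markers of surface and corneal epithelium was 15764 to 23848 CPM in iCEC and 60698 to 76772 CPM in pCEC, against 89.1 to 142 CPM in pNCC. In pCEC these included the corneal epithelial keratin Krt12 at 10182 ± 1106 CPM (SD, n = 3), so the pCEC libraries held RNA of the corneal surface epithelium. In iCEC they included the epithelial keratins Krt14 at 8367, 5643 and 9293 CPM and Krt5 at 9345, 5734 and 3745 CPM. The iCEC libraries thus also held abundant RNA of surface epithelium genes, whatever their label. All 13 markers were called higher in pCEC than in pNCC, as were all 11 that could be tested in iCEC against pNCC, while Krt12 and Pax6 were too low to test there. Krt12 had 0 counts in pNCC and 1 count in all in iCEC, and Pax6, a transcription factor of corneal epithelium and other eye tissues, had 0.104, 0.708 and 0.0595 CPM in iCEC, 975, 797 and 724 CPM in pCEC, and 0.187, 0.147 and 0 CPM in pNCC. These 2 corneal markers were therefore at or near 0 in iCEC. The summed level of 15 corneal endothelium markers was 2553 to 2973 CPM in iCEC, 1761 to 2132 CPM in pCEC and 1115 to 1306 CPM in pNCC, with the Descemet's membrane collagen Col8a2 at 0, 0.109 and 0.119 CPM in iCEC and 77.2, 153 and 37.6 CPM in pCEC. In summed level, 10 stromal markers had 62.6 to 552 CPM in iCEC, 1245 to 9934 CPM in pCEC and 27019.5 to 45982 CPM in pNCC, and 12 neural crest markers had 309 to 857 CPM, 157 to 247 CPM and 814 to 929 CPM in the same order. Sox9, also expressed outside the crest, made up much of the iCEC sum (157, 285 and 555 CPM in iCEC), and the crest factors Sox10 and Foxd3 were at or near 0 there, with Sox10 at 0, 0.0545 and 0 CPM in iCEC, against 37.8, 52.1 and 16.9 CPM in pNCC, and Foxd3 at 0 CPM in all 3 iCEC libraries, against 18.5, 31.0 and 8.45 CPM in pNCC. The mesenchymal factor Prrx1 made up most of the pNCC sum (549.9, 484 and 513 CPM in pNCC). Markers of adipocytes summed to at most 14.5 CPM in any library, those of vessel endothelium to at most 24.0 CPM, and those of sebaceous and meibomian glands had 12.7 to 45.7 CPM in iCEC, 9.22 to 16 CPM in pCEC and 98.9 to 114 CPM in pNCC. Most of the gland sum was Soat1, at 39.0, 36.9 and 10.9 CPM in iCEC and 96.3, 99.0 and 112 CPM in pNCC. The part of these cell types in the results below was not tested. In bulk RNA, fewer cells of a type and less RNA per cell cannot be told apart.

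Most of the sterol genes were higher in pCEC than in pNCC, and fewer were called between iCEC and either other group. By mean CPM, Abca1, Nr1h3, Scap, Hsd17b7, Insig2 and Nr1h2 were not highest in pCEC. Of the 29, 19 were higher in pCEC than in pNCC, 1 was lower (Abca1) and 9 did not pass at an adjusted p of 0.05 in edgeR's quasi-likelihood test, adjusted over all 16608 genes tested. The sterol genes called were 69.0%, and 62.5% of all genes tested were called in either direction, so their share of calls was near the background. The split by direction was not: 65.5% of the sterol genes were called higher and 3.45% lower, against 30.3% and 32.2% of all genes, and the median log2 fold change was 1.41 for the sterol genes and -0.013 for all genes. In iCEC against pNCC, 2 sterol genes were higher (Insig2 and Nr1h2), 1 was lower (Insig1) and 26 did not pass. That is 10.3% of the sterol genes, while 31.3% of the 16293 genes tested were called, 16.1% higher and 15.1% lower. In iCEC against pCEC, 1 sterol gene was higher (Abca1), 10 were lower and 18 did not pass, against 20.4% called among 16278 genes tested, 10.5% higher and 9.92% lower. The median log2 fold change of the 29 was 0.47 in iCEC against pNCC (0.051 over all genes) and -1.06 in iCEC against pCEC (0.039). Each group serves in 2 of the comparisons, so these are not independent.

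The CPM values of the groups did not overlap for 21 of the 29 genes in pCEC against pNCC (19 with pCEC above and 2 below), and for 70.7% of all genes tested, 30.8% above and 39.9% below. In iCEC against pNCC the groups were apart for 5 of the 29 (Dhcr7, Insig2 and Nr1h2 with iCEC above, Insig1 and Abca1 with iCEC below), against 51% of all genes, 25.1% above and 25.9% below. Between iCEC and pCEC they were apart for 20 of the 29 (3 with iCEC above and 17 below), against 43.9% of all genes, 24.4% above and 19.4% below.

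**Figure D1:**
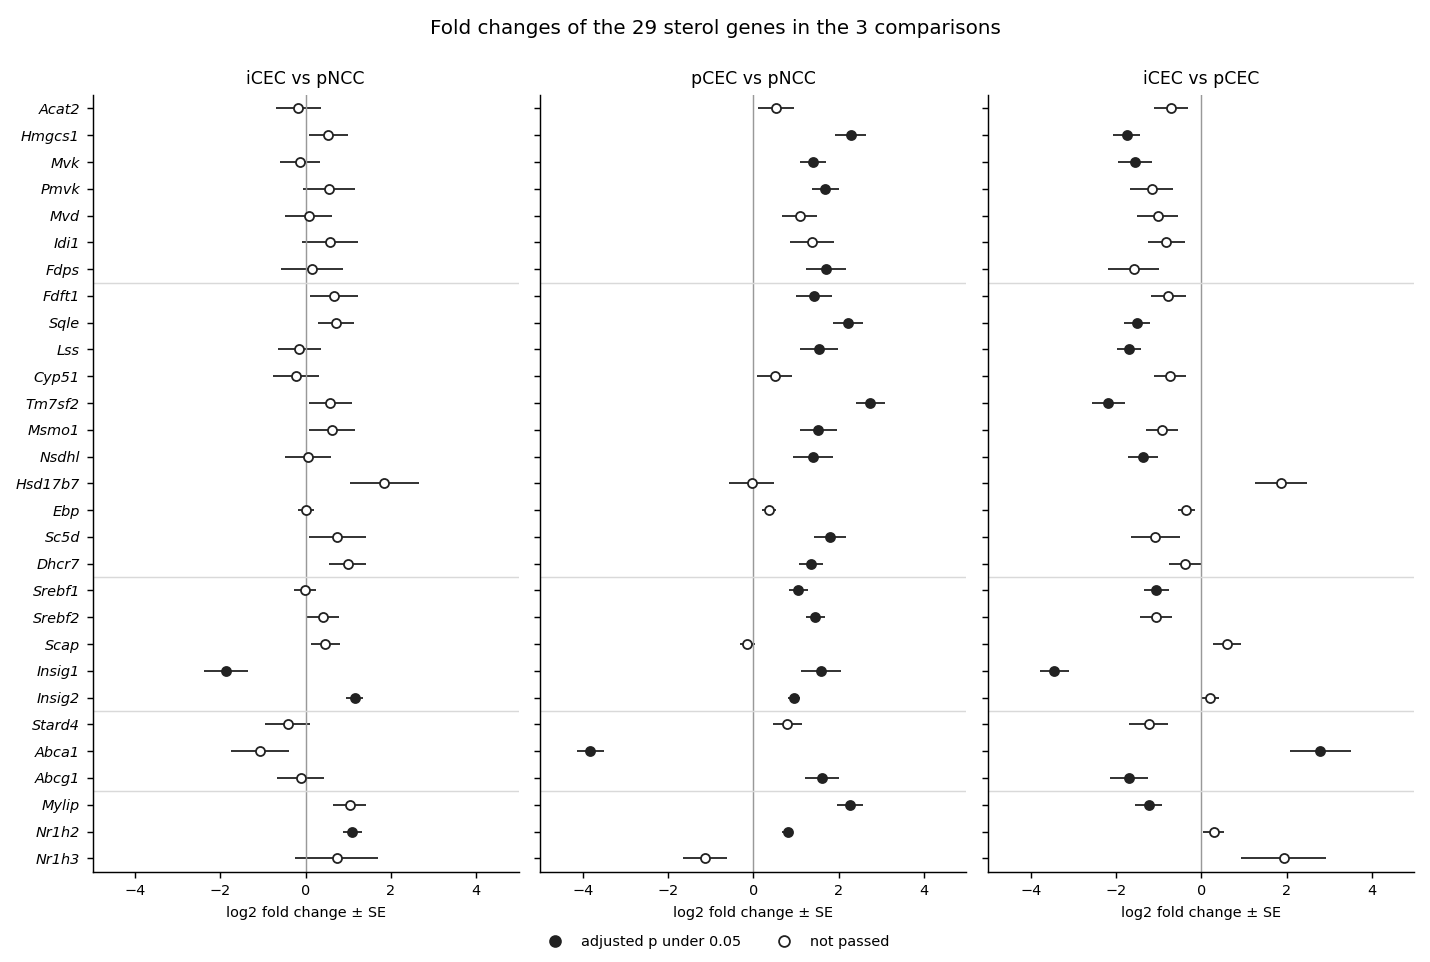
Log2 fold change (horizontal axis, ± SE) of each of the 29 sterol genes (vertical axis, in order of role, with lines between roles) in the 3 comparisons, each from 3 against 3 libraries. Filled points passed an adjusted p of 0.05: 3 genes in iCEC against pNCC, 20 in pCEC against pNCC and 11 in iCEC against pCEC.

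These counts depended on single libraries, and in the comparisons with iCEC the counts over all genes did so too. In pCEC against pNCC the number called higher was 13 without pNCC 1, 13 without pNCC 2 and 25 without pNCC 3, and 20, 19 and 14 without pCEC 1, 2 and 3. Over all genes, 5032 were called higher with all libraries and 4781, 4446 and 4723 without pNCC 1, 2 and 3. Without pCEC 1, 2 and 3 these were 5247, 4812 and 4817 genes. In iCEC against pNCC the number called higher was 1, 0 and 1 without pNCC 1, 2 and 3 and 2, 2 and 4 without iCEC 1, 2 and 3, and the number called lower was 0 in each of these 6 cases. Over all genes, 2630 were called higher with all libraries and 1209, 1093 and 1242 without pNCC 1, 2 and 3. Without iCEC 1, 2 and 3 these were 2161, 2267 and 3977 genes. Genes called lower numbered 2463 with all libraries, 1314, 1229 and 1456 without pNCC 1, 2 and 3, and 2264, 2356 and 3707 without iCEC 1, 2 and 3. Against pCEC, the number called lower in iCEC was 6, 6 and 10 without iCEC 1, 2 and 3 and 4, 4 and 2 without pCEC 1, 2 and 3. Over all genes, 1614 were called lower with all libraries and 1251, 1554 and 2241 without iCEC 1, 2 and 3. Without pCEC 1, 2 and 3 these were 774, 598 and 601 genes. With pCEC represented by its polyA library alone, 10 sterol genes were called higher and 1 lower than in pNCC, with the spread taken from pNCC. In iCEC against that library all 11 calls were lost: edgeR called 0 sterol genes and 0 genes in all after adjustment, and 7 sterol genes had an unadjusted p under 0.05. The calls of 14 of 20 genes in pCEC against pNCC, and of 2 of 11 in iCEC against pCEC (Insig1 and Lss), were kept whichever single library was left out.

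Within groups, pNCC 3 and iCEC 3 stood apart in these genes. All 18 synthesis genes were highest in pNCC 3 among the pNCC libraries, with a median of 2.34 times the mean of pNCC 1 and 2 (range 1.19 for Ebp to 3.41 for Hsd17b7). Over all genes tested, pNCC 3 was the highest of the 3 in 25.9%. In iCEC 3, 16 of the 18 were the lowest of the iCEC libraries, with a median of 0.467 times the mean of iCEC 1 and 2, while iCEC 3 was the lowest in 31.8% of all genes tested. The spread of pCEC was narrower. There pCEC 3 was the highest for 14 of 18, at a median of 1.25 times the other two, against 19.3% of all genes tested. Insig1 was likewise highest in pNCC 3, at 2.78 times the mean of the other two, and lowest in iCEC 3, at 0.660 times. Within pCEC it differed from the synthesis genes, being highest in pCEC 1 at 1.57 times the other two, against 0.988 times in pCEC 3.

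**Figure D2:**
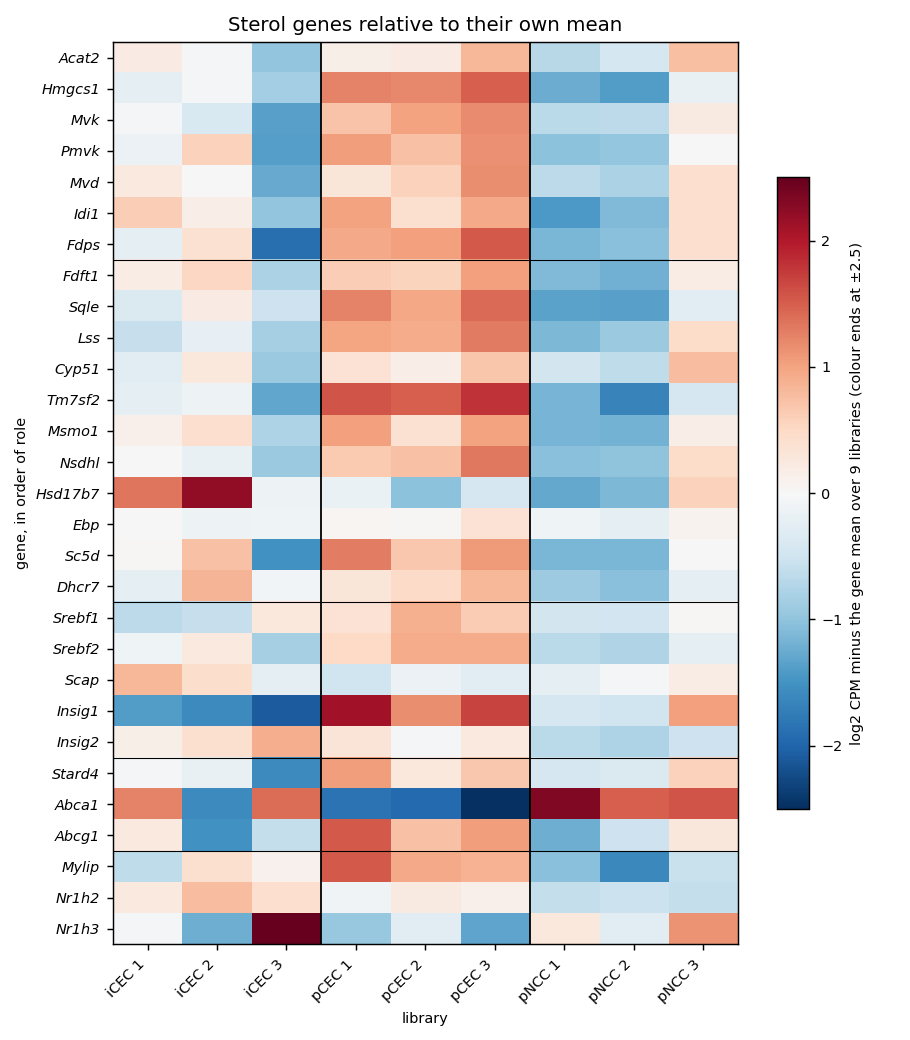
Level of each of the 29 sterol genes (rows, in order of role) in the 9 libraries (columns), as log2 CPM minus the gene's mean over the 9 libraries, with red above and blue below the mean. All 18 synthesis rows lie below their mean in pNCC 1, pNCC 2 and iCEC 3, and 17 of them lie above it in each pCEC library, Hsd17b7 being the exception.

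The stretches of DNA before 5 of these genes are shown because their transcripts carried the comparisons: Hmgcs1, Mvk and Tm7sf2 were higher in pCEC than in either other group, Insig1 was lowest in iCEC, and its relative Insig2 was lowest in pNCC. Each line gives the 250 bases before the RefSeq start in GRCm38.p6, the build also called mm10, from 5′ to 3′ on the strand of the gene. Capitals mark 4 motifs on either strand: a sterol regulatory element (TCACNCCAC), the core of NF-Y sites (CCAAT), a GC box (GGGCGG) and an LXR element (AGGTCA, any 4 bases, then AGGTCA again).
Hmgcs1 (chr13:119690101-119690350, plus strand): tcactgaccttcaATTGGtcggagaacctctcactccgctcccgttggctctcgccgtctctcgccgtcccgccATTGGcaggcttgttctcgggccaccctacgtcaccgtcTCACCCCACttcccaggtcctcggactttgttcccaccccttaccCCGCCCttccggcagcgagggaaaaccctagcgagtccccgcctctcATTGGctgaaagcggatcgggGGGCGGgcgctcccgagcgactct
Mvk (chr5:114444019-114444268, plus strand): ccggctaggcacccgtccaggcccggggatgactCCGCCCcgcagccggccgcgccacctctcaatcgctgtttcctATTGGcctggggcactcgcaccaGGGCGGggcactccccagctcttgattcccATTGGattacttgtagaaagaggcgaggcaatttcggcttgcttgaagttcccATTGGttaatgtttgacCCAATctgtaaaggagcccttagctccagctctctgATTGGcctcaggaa
Tm7sf2 (chr19:6067851-6068100, minus strand): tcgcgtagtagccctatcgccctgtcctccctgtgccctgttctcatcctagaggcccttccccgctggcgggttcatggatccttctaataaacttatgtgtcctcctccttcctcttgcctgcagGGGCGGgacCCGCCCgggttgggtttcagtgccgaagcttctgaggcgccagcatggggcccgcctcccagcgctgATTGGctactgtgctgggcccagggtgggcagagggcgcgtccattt
Insig1 (chr5:28071162-28071411, plus strand): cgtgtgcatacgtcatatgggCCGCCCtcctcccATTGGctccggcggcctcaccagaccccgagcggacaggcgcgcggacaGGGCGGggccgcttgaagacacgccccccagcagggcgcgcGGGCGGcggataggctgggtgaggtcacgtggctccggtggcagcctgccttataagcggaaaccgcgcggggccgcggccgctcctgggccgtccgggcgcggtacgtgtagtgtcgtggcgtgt
Insig2 (chr1:121332590-121332839, minus strand): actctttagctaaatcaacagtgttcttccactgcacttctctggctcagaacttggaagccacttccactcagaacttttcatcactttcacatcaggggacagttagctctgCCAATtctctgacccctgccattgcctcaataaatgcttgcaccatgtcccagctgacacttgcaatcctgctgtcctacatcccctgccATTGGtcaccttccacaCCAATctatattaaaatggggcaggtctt

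RefSeq windows of 300 bases (250 before the start and 50 after it) were found for 24 of the 29 genes. The sterol regulatory element in this spelling was in 1 of the 24, Hmgcs1, at 137 to 129 bases before the start, and in 1.44% of all 27025 genes with a window. CCAAT was in 19 of 24 (79.2%) and in 41.1% of all genes. GGGCGG was in 21 of 24 (87.5%) and in 38.2% of all genes. The LXR element was in none of the 24 and in 4 genes in all. The Mvk window held 5 copies of CCAAT. For Insig2 the first of 3 windows is shown, and neither of the others held CCAAT. These are matches of letters and not binding sites, matches of different motifs did not share bases in the stretches shown, and genes with several starts had more windows in which to match.

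In the early part of the pathway, from acetyl-CoA to farnesyl pyrophosphate, 4 of 7 enzymes (57.1%) were higher in pCEC than in pNCC and 3 did not pass, while 30.3% of all genes tested were called higher and 62.5% in either direction. Hmgcs1 (chromosome 13, 119690379 to 119708260, plus strand, mm10), the cytosolic synthase that makes HMG-CoA, had 192, 224 and 126 CPM in iCEC, 536, 523 and 644 CPM in pCEC, and 96.3, 85.8 and 199 CPM in pNCC. Each pCEC library was above every library of the other groups. Hmgcs1 was 4.85-fold higher in pCEC than in pNCC (adjusted p = 0.00147) and 3.38-fold lower in iCEC than in pCEC (adjusted p = 0.0126), and between iCEC and pNCC its log2 fold change was 0.54 ± 0.447 (SE, n = 3 against 3). Mvk, mevalonate kinase, stood at 71.4, 87.2 and 98.8 CPM in pCEC, against 27.3, 27.6 and 50.9 CPM in pNCC (2.65-fold higher in pCEC, adjusted p = 0.00573). It had 43.1, 33.7 and 17 CPM in iCEC, 2.96-fold below pCEC (adjusted p = 0.0380). Pmvk, the next kinase, was 3.21-fold higher in pCEC than in pNCC (adjusted p = 0.00326) with no overlap between the groups. Fdps, farnesyl pyrophosphate synthase, averaged 484 ± 111 CPM in pCEC and 161 ± 107 CPM in pNCC (SD, n = 3 each), 3.25-fold higher (adjusted p = 0.0177). In Fdps the library pNCC 3, at 285 CPM, lay well above pNCC 1 and 2, at 96.5 and 103 CPM. The call of Fdps was lost without pCEC 3 (adjusted p = 0.0535), pNCC 1 (0.0547) or pNCC 2 (0.0616). Of the calls in iCEC against pCEC, that of Hmgcs1 was lost without pCEC 3 (adjusted p = 0.0563) and that of Mvk without iCEC 2 (adjusted p = 0.0790), pCEC 1 (0.0770), pCEC 2 (0.113) or pCEC 3 (0.125).

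The other early enzymes did not pass in pCEC against pNCC. Acat2, which joins 2 acetyl-CoA molecules in the cytosol, had 75.5, 63.4 and 32.9 CPM in iCEC, 72.5, 75.1 and 115 CPM in pCEC, and 40.5, 48 and 109 CPM in pNCC, and pNCC 3 overlapped the pCEC libraries. Mvd, mevalonate decarboxylase, averaged 34.7 ± 16.1 CPM in iCEC, 65.5 ± 20.5 CPM in pCEC and 33.8 ± 16.9 CPM in pNCC (SD, n = 3 each), with a log2 fold change of 1.08 ± 0.407 in pCEC against pNCC (adjusted p = 0.0527). Idi1, isopentenyl diphosphate isomerase, averaged 44.6 ± 22.0 CPM, 74.2 ± 16.2 CPM and 30.8 ± 22.8 CPM in the same order, with 1.38 ± 0.510 (adjusted p = 0.0501). Without pNCC 3, all 3 of these genes were called higher in pCEC, Acat2 at a log2 fold change of 1.14 (adjusted p = 0.0105), Mvd at 1.60 (0.00414) and Idi1 at 2.21 (0.000348). Mvd was also called without pCEC 1 (log2 fold change 1.34, adjusted p = 0.0345). Of these 7 enzymes none passed in iCEC against pNCC, where their log2 fold changes ran from -0.17 for Acat2 to 0.57 for Idi1. Acat2 has a close copy, Acat3, which had 7 to 65 counts per library, and the Idi1 pseudogenes had at most 33, so reads assigned to these copies were few beside those of the genes named.

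**Figure D3:**
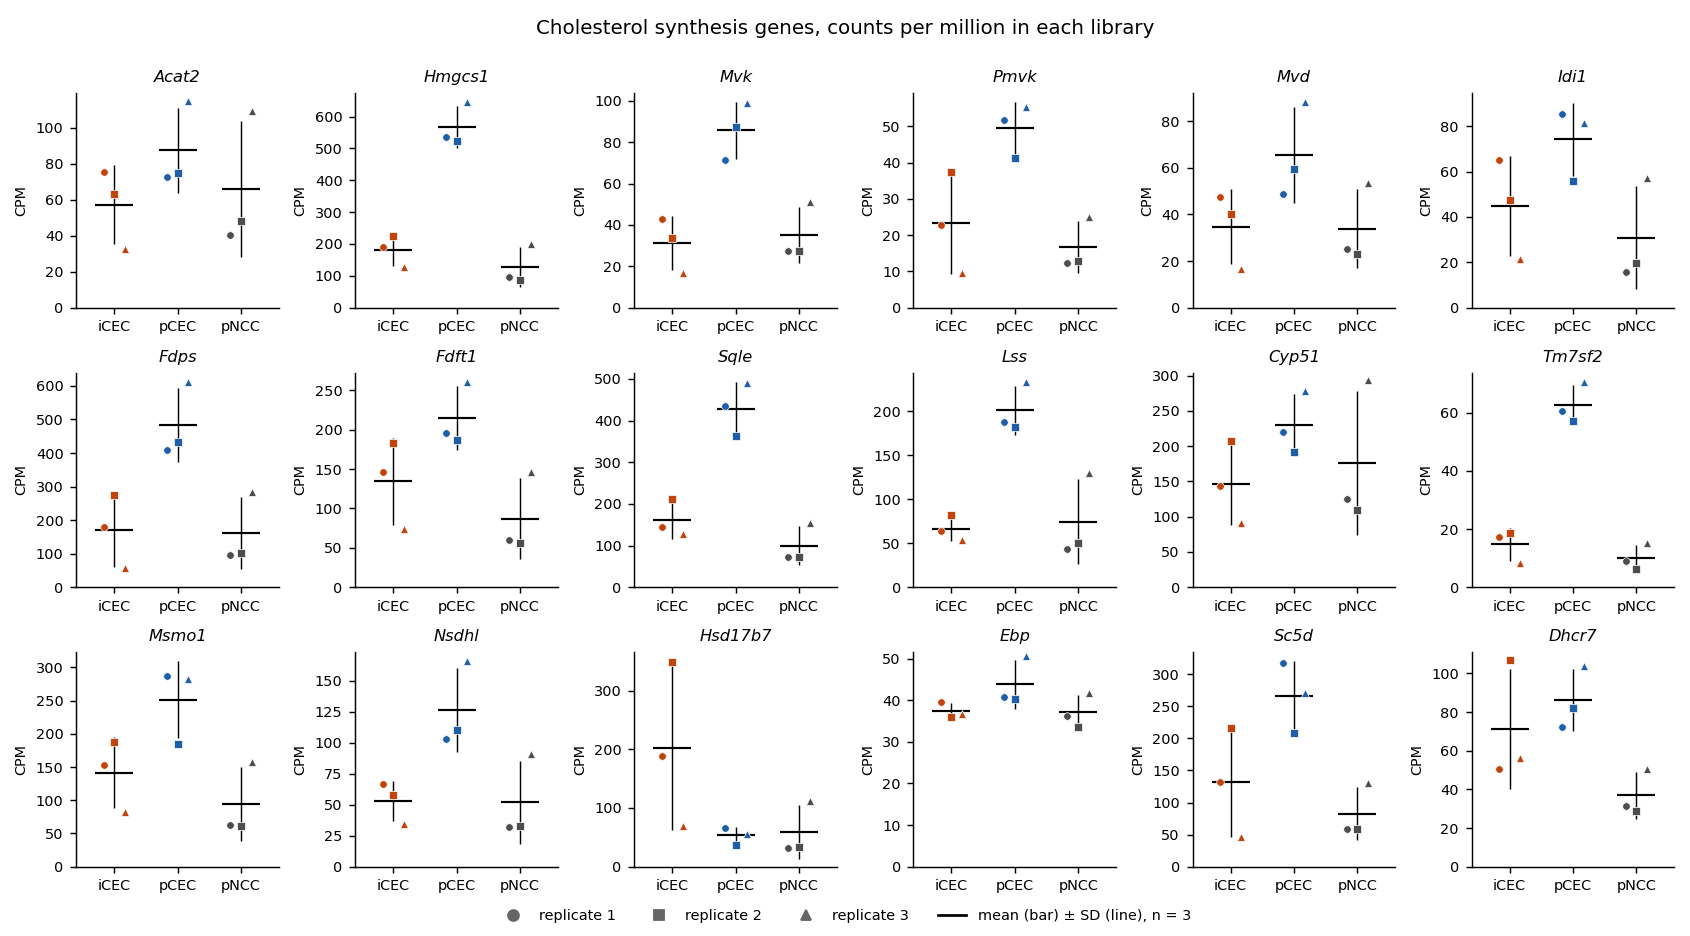
CPM (vertical axes, from 0) of the 18 synthesis genes in each library, with iCEC, pCEC and pNCC from left to right, points for replicates 1 to 3 and a bar and line for the mean ± SD (n = 3). All pCEC points lie above every other point in 9 panels (Hmgcs1, Mvk, Pmvk, Fdps, Fdft1, Sqle, Lss, Tm7sf2 and Nsdhl), pNCC 3 lies above pNCC 1 and 2 in all 18, and iCEC 3 lies at the bottom of iCEC in 16, while Hsd17b7 is highest in iCEC 2.

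In the second part of the pathway, from farnesyl pyrophosphate through squalene to cholesterol, 8 of 11 enzymes (72.7%) were higher in pCEC than in pNCC and 3 did not pass, against the same 30.3% of all genes called higher and 62.5% called in either direction. Tm7sf2 (chromosome 19, 6062821 to 6068373, minus strand, mm10), a sterol C14 reductase, rose the most of the 29 genes in pCEC against pNCC. It stood at 17.4, 18.6 and 8.27 CPM in iCEC, 60.6, 57.2 and 70.5 CPM in pCEC, and 9.05, 6.36 and 15.1 CPM in pNCC. The pCEC libraries lay above the other groups, which overlapped each other, and the gene was 6.71-fold higher in pCEC than in pNCC (adjusted p = 0.000422) and 4.55-fold lower in iCEC than in pCEC (adjusted p = 0.0120). Sqle, squalene epoxidase, the first oxygen-dependent step, had 143, 212 and 128 CPM in iCEC, 434, 362 and 490.0 CPM in pCEC, and 73.0, 72.2 and 154 CPM in pNCC. It was 4.67-fold higher in pCEC than in pNCC (adjusted p = 0.00141) and 2.86-fold lower in iCEC than in pCEC (adjusted p = 0.0172). Lss, lanosterol synthase, which closes the sterol rings, had 63.8, 82.4 and 53.5 CPM in iCEC and 187, 182 and 233 CPM in pCEC. These groups did not overlap, and Lss was 3.25-fold lower in iCEC (adjusted p = 0.00944), a call that was kept without any single library. Lss was 2.91-fold higher in pCEC than in pNCC (adjusted p = 0.0202), where pNCC 3 stood at 130.1 CPM.

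Fdft1, squalene synthase, was 2.68-fold higher in pCEC than in pNCC (adjusted p = 0.0218), at 215 ± 40.4 CPM against 87.1 ± 51.2 CPM (SD, n = 3 each). The C4 demethylation genes Msmo1 and Nsdhl were 2.88-fold and 2.65-fold higher (adjusted p = 0.0175 and 0.0352). Sc5d, the lathosterol desaturase, averaged 265 ± 54.9 CPM and 82.7 ± 41.3 CPM in these groups, 3.46-fold higher (adjusted p = 0.00465). Dhcr7, which makes the last reduction on 1 branch to cholesterol, had 50.8, 107 and 56.2 CPM in iCEC, 72.4, 82.3 and 104 CPM in pCEC, and 31.2, 28.7 and 50.6 CPM in pNCC. It was 2.56-fold higher in pCEC than in pNCC (adjusted p = 0.00478). Its iCEC libraries were also all above its pNCC libraries, by a narrow margin at iCEC 1 and pNCC 3, without passing the test (log2 fold change 0.99 ± 0.430, SE, adjusted p = 0.134). Nsdhl was 2.58-fold lower in iCEC than in pCEC (adjusted p = 0.0415).

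Several of these calls were lost when a library was left out. In pCEC against pNCC the call of Fdft1 was lost without pCEC 3 (adjusted p = 0.0639), pNCC 1 (0.0724) or pNCC 2 (0.0696), that of Lss without pCEC 3 (adjusted p = 0.0571), pNCC 1 (0.0563) or pNCC 2 (0.0705), that of Msmo1 without pNCC 1 (adjusted p = 0.0584) or pNCC 2 (0.0597), and that of Nsdhl without pCEC 2 (adjusted p = 0.0531), pCEC 3 (0.102), pNCC 1 (0.104) or pNCC 2 (0.110). Between iCEC and pCEC the call of Sqle was lost without iCEC 1 (adjusted p = 0.0573), pCEC 1 (0.0591), pCEC 2 (0.0535) or pCEC 3 (0.0707), that of Tm7sf2 without pCEC 3 (adjusted p = 0.0534), and that of Nsdhl without iCEC 1 (adjusted p = 0.0634), iCEC 2 (0.0762), pCEC 1 (0.0745), pCEC 2 (0.0991) or pCEC 3 (0.131). Fdft1 shares 18.3% of its exon length with Ctsb, an abundant gene on the opposite strand, and whether counting used strand is not given in the sources used here. Ctsb had 12665 to 17608 counts in pCEC and 32506 to 42035 in pNCC, a difference in the other direction to that of Fdft1. Tm7sf2 shares 12.1% of its exon length with Vps51 on the same strand, so part of their reads may have been set aside or assigned to either. Fdps shares 26.7% with Gm43738, a gene model on the same strand that is not among the symbols of the count table. No reads are listed for Gm43738, and whether Fdps reads were set aside is not known. Vps51 had 1389 to 2016 counts in pCEC and 761 to 836 in pNCC, a difference in the same direction as that of Tm7sf2. Tm7sf2 itself had 1931 to 2062 counts in pCEC and 217 to 528 in pNCC.

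Cyp51, Ebp and Hsd17b7 did not pass in pCEC against pNCC, and of these only Hsd17b7 did not have its highest mean CPM in pCEC. Cyp51, lanosterol demethylase, had 144, 207 and 90.7 CPM in iCEC, 220.4, 191 and 278 CPM in pCEC, and 125, 110.0 and 293 CPM in pNCC, so that pNCC 3 was the highest of all 9 libraries. In pCEC against pNCC its log2 fold change was 0.50 ± 0.410 (SE, adjusted p = 0.322), and without pNCC 3 it was 1.12 (adjusted p = 0.00468). Ebp, the sterol isomerase, varied little, at 37.4 ± 1.87 CPM in iCEC, 43.9 ± 5.88 CPM in pCEC and 37.2 ± 4.12 CPM in pNCC (SD, n = 3 each). Its log2 fold change was 0.37 ± 0.167 in pCEC against pNCC (adjusted p = 0.0915) and 0.51 without pCEC 1 (adjusted p = 0.0387). Hsd17b7 (chromosome 1, 169949535 to 169969241, minus strand, mm10), the 3-ketosteroid reductase of C4 demethylation, had 189, 349 and 68.8 CPM in iCEC, 66.5, 36.9 and 56.3 CPM in pCEC, and 31.1, 34.3 and 111 CPM in pNCC. Here iCEC 1 and 2 were the highest libraries, iCEC 3 was within the range of pNCC, and the pCEC libraries lay within the range of pNCC. The log2 fold change of Hsd17b7 was 1.84 ± 0.812 in iCEC against pNCC (adjusted p = 0.137) and 1.86 ± 0.614 in iCEC against pCEC (adjusted p = 0.0800), and neither passed. Without iCEC 3 they were 2.25 (adjusted p = 0.0376) and 2.32 (adjusted p = 0.00520). In pCEC against pNCC Hsd17b7 was 0.85 without pNCC 3 (adjusted p = 0.0251), against -0.045 with all libraries (adjusted p = 0.947).

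Over the 18 synthesis enzymes, 12 were higher in pCEC than in pNCC and 6 did not pass (median log2 fold change 1.41). These 66.7% were near the 62.5% of all genes called in either direction, while 30.3% of all genes were called higher. Between iCEC and pCEC, 6 (33.3%) were lower in iCEC and 12 did not pass (median -1.05), where 9.92% of all genes were called lower and 20.4% in either direction. In iCEC against pNCC none passed (median 0.54), with 0 at an unadjusted p under 0.05 in the main edgeR fit, 0 by the DESeq2 Wald test after adjustment and 1 before it, while 31.3% of all genes were called. In edgeR the unadjusted p was under 0.05 for 5 synthesis genes without pNCC 3 (5726 genes in all). It was so for 3 without iCEC 3 (9121 in all) and 2 with all 9 libraries in one fit (8180 in all). The iCEC and pNCC libraries overlapped in 17 of the 18, and did not overlap in 51% of all genes tested. Without iCEC 3, Hsd17b7 alone passed in that comparison. The spread within both groups was wide. For Fdps the log2 fold change of 0.14 ± 0.729 (SE) rests on iCEC libraries from 57.4 to 275 CPM and pNCC libraries from 96.5 to 285 CPM.

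Among the sterol sensors, the 2 INSIG genes went apart in iCEC. Insig1 (chromosome 5, 28071363 to 28078662, plus strand, mm10), itself raised by SREBP, had 29.4, 25.8 and 18.2 CPM in iCEC, 331, 172 and 249 CPM in pCEC, and 57.9, 54.9 and 157 CPM in pNCC. The 3 groups did not overlap, with iCEC lowest and pCEC highest. Insig1 was 11-fold lower in iCEC than in pCEC (adjusted p = 0.00252), a call kept without any single library. It was also 3.64-fold lower in iCEC than in pNCC (adjusted p = 0.0382) and 3.0-fold higher in pCEC than in pNCC (adjusted p = 0.0231). The call against pNCC in iCEC was lost without iCEC 1 (adjusted p = 0.0772), iCEC 2 (0.0825), iCEC 3 (0.0545), pNCC 1 (0.0617), pNCC 2 (0.0568) or pNCC 3 (0.0740), with log2 fold changes of -1.17 without pNCC 3 and -1.86 with all libraries. That in pCEC was lost without pCEC 1 (adjusted p = 0.0521), pCEC 3 (0.0521), pNCC 1 (0.0745) or pNCC 2 (0.0735). Insig2 (chromosome 1, 121304353 to 121332589, minus strand, mm10), the second INSIG protein, had 69.8, 83.9 and 118 CPM in iCEC, 79.4, 61.2 and 75.1 CPM in pCEC, and 40.0, 37.0 and 44.3 CPM in pNCC. Every iCEC and pCEC library was above every pNCC library, and Insig2 was 2.22-fold higher in iCEC (adjusted p = 0.00758) and 1.94-fold higher in pCEC (adjusted p = 0.00100). In iCEC that call did not hold without pNCC 2 (adjusted p = 0.0520). Between iCEC and pCEC its log2 fold change was 0.20 ± 0.212 (SE, adjusted p = 0.538).

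Per kilobase of exon, a scale on which levels of different genes can be set side by side, Insig1 averaged 7.90 CPM per kb and Insig2 26.1 CPM per kb in iCEC. In pCEC Insig1 averaged 81.1 and Insig2 20.7 CPM per kb, and in pNCC 29.1 and 11.6 CPM per kb. Insig2 was the more abundant transcript in each iCEC library, and Insig1 in each pCEC and pNCC library. On this scale Hmgcs1 (124 CPM per kb) and Fdps (115) were the most abundant of the 29 in pCEC, Srebf2 (44.7) and Nr1h2 (41.9) in iCEC, and Cyp51 (39.9) and Fdps (38.4) in pNCC. Insig1 ranked 4 of 29 in pCEC and in pNCC and 23 of 29 in iCEC. These ranks use all annotated exons of a gene, and the spread between libraries of a group was not set against the gaps between neighbouring ranks.

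Both SREBP genes were higher in pCEC than in pNCC. Srebf2 (chromosome 15, 82147181 to 82205379, plus strand, mm10), which encodes SREBP-2, had 332, 429 and 202 CPM in iCEC, 506, 685 and 687 CPM in pCEC, and 225, 214 and 310.4 CPM in pNCC. The pCEC libraries were above all others, 2.74-fold higher than pNCC (adjusted p = 0.00118), while in iCEC against pCEC the log2 fold change of -1.07 ± 0.370 (SE) did not pass (adjusted p = 0.0904). Srebf1, which encodes the SREBP-1 forms that mainly drive fatty acid genes, had 112, 118 and 213 CPM in iCEC, 227, 328 and 276 CPM in pCEC, and 129, 128 and 182 CPM in pNCC. It was 2.07-fold higher in pCEC than in pNCC (adjusted p = 0.00477) and 2.08-fold lower in iCEC than in pCEC (adjusted p = 0.0475). The iCEC call of Srebf1 was lost without iCEC 1 (adjusted p = 0.123), iCEC 2 (0.101), pCEC 1 (0.0698), pCEC 2 (0.168) or pCEC 3 (0.150). In iCEC 3 Srebf1 was the highest of the iCEC libraries, the reverse of Srebf2 and of most synthesis genes there. Scap, the escort of SREBP, did not pass in any comparison, at 131 ± 46.0 CPM in iCEC, 80.1 ± 9.76 CPM in pCEC and 96.9 ± 14.5 CPM in pNCC (SD, n = 3 each). Without iCEC 3, which had 83.6 CPM, Scap was called higher in iCEC, with a log2 fold change of 0.73 against pNCC (adjusted p = 0.0291) and 0.91 against pCEC (adjusted p = 0.0182).

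**Figure D4:**
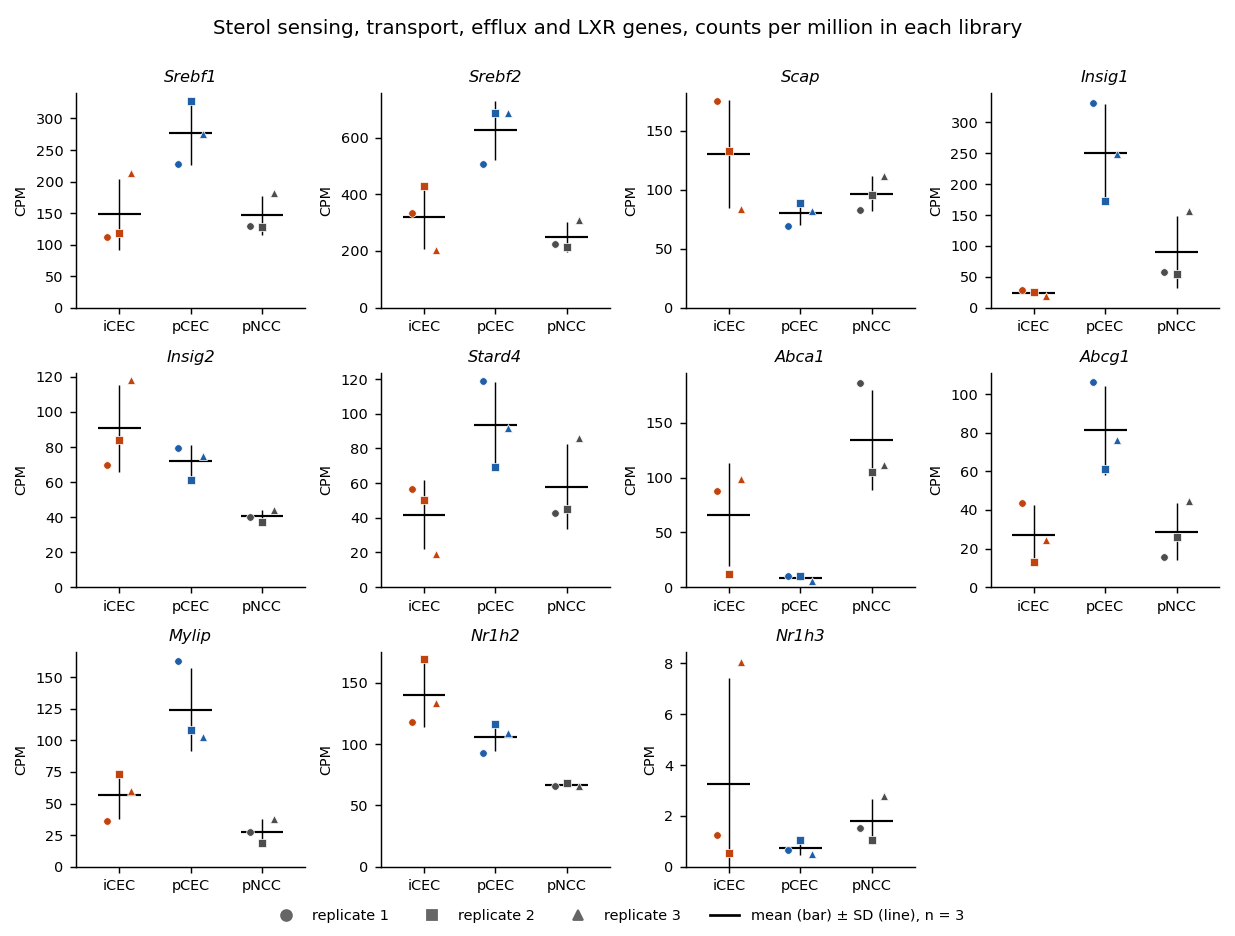
CPM (vertical axes, from 0) of the 11 genes of sterol sensing, transport, efflux and the LXR response in each library, with iCEC, pCEC and pNCC from left to right, points for replicates 1 to 3 and a bar and line for the mean ± SD (n = 3). Insig1 is lowest in iCEC, Insig2 is lowest in pNCC, and Abca1 is lowest in pCEC and iCEC 2 while Abcg1 is highest in pCEC.

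The efflux genes Abca1 and Abcg1 went in opposite directions in pCEC. Abca1 (chromosome 4, 53030787 to 53159895, minus strand, mm10), which loads cholesterol onto lipid-poor apolipoprotein A-I, had 87.9, 12.4 and 98.5 CPM in iCEC, 10.4, 9.76 and 5.84 CPM in pCEC, and 187, 105 and 111 CPM in pNCC. It was 14.2-fold lower in pCEC than in pNCC (adjusted p = 5.16e-05) and 6.90-fold higher in iCEC than in pCEC (adjusted p = 0.0394). In iCEC, 2 libraries were close to the pNCC range and iCEC 2 was close to pCEC, and in iCEC against pNCC the gene did not pass (log2 fold change -1.07 ± 0.676, SE, adjusted p = 0.277). The call against pCEC was lost without iCEC 1 (adjusted p = 0.0934), iCEC 3 (0.0642), pCEC 1 (0.118), pCEC 2 (0.128) or pCEC 3 (0.141). Abcg1, which exports cholesterol to mature lipoprotein particles, had 43.5, 12.9 and 24.5 CPM in iCEC, 106, 61.1 and 76.4 CPM in pCEC, and 15.8, 25.8 and 44.8 CPM in pNCC. It was 3.04-fold higher in pCEC than in pNCC (adjusted p = 0.0109) and 3.26-fold lower in iCEC than in pCEC (adjusted p = 0.0416). That last call was lost without iCEC 2 (adjusted p = 0.0659), iCEC 3 (0.0771), pCEC 1 (0.127), pCEC 2 (0.0865) or pCEC 3 (0.117). Stard4, a carrier of cholesterol in the cytosol, averaged 41.9 ± 20.0 CPM in iCEC, 93.2 ± 24.8 CPM in pCEC and 58.0 ± 24.4 CPM in pNCC (SD, n = 3 each). It did not pass in pCEC against pNCC (log2 fold change 0.80 ± 0.333, SE, adjusted p = 0.0736), and was called without pNCC 3 (1.23, adjusted p = 0.00361) or pCEC 2 (0.99, adjusted p = 0.0489). Against pCEC, Stard4 was called lower in iCEC without iCEC 3 (-0.83, adjusted p = 0.0422), as was Fdps (-1.12, adjusted p = 0.0427).

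Of the LXR genes, Nr1h2 (LXRβ, found in most tissues) had 118, 169.9 and 133 CPM in iCEC, 93.0, 117 and 109 CPM in pCEC, and 66.1, 68.1 and 66.2 CPM in pNCC. The pNCC libraries were nearly equal and below all others, and Nr1h2 was 2.13-fold higher in iCEC (adjusted p = 0.0138) and 1.74-fold higher in pCEC (adjusted p = 0.00138). In iCEC the Nr1h2 call did not hold without pNCC 1 (adjusted p = 0.0683), pNCC 2 (0.0721) or pNCC 3 (0.0629). Nr1h3 (LXRα, high in liver, fat and macrophages) was scarce, at 1.23, 0.545 and 8.04 CPM in iCEC, 0.658, 1.05 and 0.511 CPM in pCEC, and 1.52, 1.06 and 2.77 CPM in pNCC. It passed in no comparison, and iCEC 3 alone stood clearly above the others. Its log2 fold change in iCEC against pNCC was 0.73 ± 0.971 (SE), and -0.95 without iCEC 3 (adjusted p = 0.291). Mylip (chromosome 13, 45389742 to 45412022, plus strand, mm10), an LXR target whose ubiquitin ligase marks lipoprotein receptors for breakdown, had 35.9, 73.5 and 60.1 CPM in iCEC, 163, 108 and 103 CPM in pCEC, and 27.1, 18.4 and 37.9 CPM in pNCC. It was 4.83-fold higher in pCEC than in pNCC (adjusted p = 0.000652) with no overlap, and 2.36-fold lower in iCEC than in pCEC (adjusted p = 0.0362). That iCEC call was lost without iCEC 1 (adjusted p = 0.0651), iCEC 3 (0.0532), pCEC 1 (0.118), pCEC 2 (0.0944) or pCEC 3 (0.0931). Macrophages express LXR genes and Abca1, and the summed level of 10 macrophage markers was 66.0 to 553 CPM in iCEC, 26.4 to 47.8 CPM in pCEC and 25.8 to 36.4 CPM in pNCC. Most of the iCEC sum in iCEC 1 and 2 was Cd14 (366, 499 and 47.7 CPM in iCEC), while Ptprc, Adgre1, Lyz2 and Tyrobp were at 0 in iCEC. Cd68 had 30.9, 51.9 and 2.80 CPM in iCEC, 17.6, 14.4 and 21.5 CPM in pCEC, and 2.52, 4.13 and 2.37 CPM in pNCC. Csf1r had 0.167, 0.708 and 15.5 CPM in iCEC, 1.02, 5.85 and 3.94 CPM in pCEC, and 1.43, 2.38 and 4.97 CPM in pNCC. Aif1, Mrc1 and Fcgr1 had at most 1.08 CPM in any iCEC library. The part of macrophages was not tested.

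Other branches of lipid metabolism were counted in 6 lists, with the genes of smallest adjusted p named in each. A gene named for 1 comparison can differ in another comparison as well. Over all genes tested the median log2 fold change was 0.051 in iCEC against pNCC, -0.013 in pCEC against pNCC and 0.039 in iCEC against pCEC, and the shares called are those given above. The supply of acetyl-CoA and the isoprenoid branch had 1 higher and 0 lower of 13 tested in iCEC against pNCC (median log2 fold change 0.059), 2 higher and 5 lower of 13 tested in pCEC against pNCC (median log2 fold change -0.12) and 1 higher and 2 lower of 13 tested in iCEC against pCEC (median log2 fold change -0.043). Acss2, an SREBP target that makes acetyl-CoA from acetate, stood at 35.5, 37.1 and 24.6 CPM in iCEC, 68.3, 62.4 and 98.9 CPM in pCEC, and 15.3, 13.4 and 28.9 CPM in pNCC. It was 4.34-fold higher in pCEC than in pNCC (adjusted p = 0.00205) and 2.56-fold lower in iCEC than in pCEC (adjusted p = 0.0264). Acly, which makes acetyl-CoA from citrate, was 1.99-fold lower in iCEC than in pCEC (adjusted p = 0.0383). Nus1, of dolichol synthesis, was 2.61-fold lower in pCEC than in pNCC (adjusted p = 0.000221) and 2.22-fold higher in iCEC than in pCEC (adjusted p = 0.00735). Coq2, of ubiquinone synthesis, was 1.63-fold higher in iCEC than in pNCC (adjusted p = 0.0491) and 2.27-fold higher in pCEC than in pNCC (adjusted p = 0.000122).

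The list of SREBP processing and sterol-dependent degradation had 3 higher and 3 lower of 14 tested in iCEC against pNCC (median log2 fold change -0.059), 5 higher and 4 lower of 14 tested in pCEC against pNCC (median log2 fold change 0.041) and 1 higher and 1 lower of 14 tested in iCEC against pCEC (median log2 fold change -0.11). The coat genes Sec23a and Sec24d, which serve secretory cargo in general, were among those that fell. Sec23a was 7.11-fold lower in iCEC than in pNCC (adjusted p = 0.000490) and 5.59-fold lower in pCEC than in pNCC (adjusted p = 1.23e-05), and Sec24d was 7.66-fold lower in iCEC than in pNCC (adjusted p = 0.0111) and 16.4-fold lower in pCEC than in pNCC (adjusted p = 7.64e-05). Erlin1 and Erlin2 encode endoplasmic reticulum membrane proteins. Erlin1 was 2.47-fold higher in pCEC than in pNCC (adjusted p = 0.000141) and 2.54-fold lower in iCEC than in pCEC (adjusted p = 0.00688). Erlin2 was higher than in pNCC in both other groups, 2.29-fold in iCEC (adjusted p = 0.00514) and 2.36-fold in pCEC (adjusted p = 0.000221). Mbtps2, a protease that releases SREBP, was 1.82-fold higher in iCEC than in pCEC (adjusted p = 0.0383).

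The fatty acid list had 1 higher and 2 lower of 14 tested in iCEC against pNCC (median log2 fold change -0.12), 3 higher and 4 lower of 13 tested in pCEC against pNCC (median log2 fold change -0.22) and 2 higher and 4 lower of 14 tested in iCEC against pCEC (median log2 fold change -0.077). Fads1, a desaturase of polyunsaturated fatty acids, stood at 61.1, 49.1 and 55.6 CPM in iCEC, 139, 197 and 187 CPM in pCEC, and 212, 199 and 329.6 CPM in pNCC. It was lowest in iCEC, with no overlap with either other group, 4.47-fold lower in iCEC than in pNCC (adjusted p = 0.00287) and 3.46-fold lower in iCEC than in pCEC (adjusted p = 0.00550). Elovl5, an elongase, was 1.97-fold lower in iCEC than in pNCC (adjusted p = 0.0192) and 1.56-fold lower in pCEC than in pNCC (adjusted p = 0.00174). Scd2, a stearoyl-CoA desaturase, was 3.18-fold lower in iCEC than in pCEC (adjusted p = 0.00833). Me1, malic enzyme, was 11.8-fold lower in pCEC than in pNCC (adjusted p = 0.000187) and 10.2-fold higher in iCEC than in pCEC (adjusted p = 0.00284). Mid1ip1, an activator of fatty acid synthesis, was 2.82-fold higher in pCEC than in pNCC (adjusted p = 0.000528). Pnpla3, a lipid droplet protein, was 12.6-fold higher in iCEC than in pNCC (adjusted p = 0.00419), from 4 to 9 counts per pNCC library.

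Genes of lipoprotein uptake and intracellular sterol transport had 1 higher and 4 lower of 18 tested in iCEC against pNCC (median log2 fold change -0.63), 4 higher and 12 lower of 18 tested in pCEC against pNCC (median log2 fold change -1.72) and 3 higher and 1 lower of 18 tested in iCEC against pCEC (median log2 fold change 0.17). In pCEC against pNCC this median was opposite in sign to the 1.41 of the synthesis enzymes. Npc2, a lysosomal cholesterol carrier, was 3.80-fold lower in pCEC than in pNCC (adjusted p = 2.76e-05), and Cav1, the caveolae protein, was 8.64-fold lower in pCEC than in pNCC (adjusted p = 3.22e-05). Lipa, the lysosomal lipase that frees cholesterol from esters, was 6.94-fold lower in iCEC than in pNCC (adjusted p = 0.00252) and 5.29-fold lower in pCEC than in pNCC. Hdlbp, a protein named for binding high-density lipoprotein, was 2.61-fold lower in iCEC than in pNCC (adjusted p = 0.00344). Gramd1c, of a family that moves sterol between membranes, was 5.26-fold higher in iCEC than in pNCC (adjusted p = 0.0116). Vldlr, a lipoprotein receptor, was 5.65-fold higher in iCEC than in pCEC (adjusted p = 0.0173), and Stard5, a sterol carrier, was 13.1-fold higher in iCEC than in pCEC (adjusted p = 0.00187).

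Genes of esterification and oxysterol metabolism had 2 higher and 3 lower of 10 tested in iCEC against pNCC (median log2 fold change -1.13), 3 higher and 6 lower of 10 tested in pCEC against pNCC (median log2 fold change -1.98) and 1 higher and 1 lower of 9 tested in iCEC against pCEC (median log2 fold change 1.74). Cyp39a1, an oxysterol hydroxylase, was 7.62-fold higher in pCEC than in pNCC (adjusted p = 4.38e-06) and 3.86-fold lower in iCEC than in pCEC (adjusted p = 0.00513). Nceh1, which hydrolyses cholesterol esters, had 27.5, 7.44 and 17.3 CPM in iCEC, 0.239, 1.28 and 0.511 CPM in pCEC, and 37.9, 46.8 and 34.3 CPM in pNCC. It was 52.2-fold lower in pCEC than in pNCC (adjusted p = 9.63e-05) and 23.0-fold higher in iCEC than in pCEC (adjusted p = 0.0133). Ch25h, which makes 25-hydroxycholesterol, had 17.7, 25.2 and 0 CPM in iCEC, 0.299, 0.638 and 0.256 CPM in pCEC, and 34.4, 23.5 and 13.6 CPM in pNCC, 52.9-fold lower in pCEC than in pNCC (adjusted p = 6.63e-05), and was listed at 0 in iCEC 3. Cyp7b1, an oxysterol hydroxylase, was 4.38-fold lower in iCEC than in pNCC (adjusted p = 0.0232), and Acbd3, a Golgi protein, was 2.08-fold lower in iCEC than in pNCC (adjusted p = 0.00357). Sult2b1, a cholesterol sulfotransferase of epidermis, was 47.3-fold higher in iCEC than in pNCC (adjusted p = 0.00783), from 4 to 9 counts per pNCC library.

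Other LXR targets, LXR partners and efflux genes had 3 higher and 0 lower of 9 tested in iCEC against pNCC (median log2 fold change 0.43), 5 higher and 2 lower of 9 tested in pCEC against pNCC (median log2 fold change 1.00) and 2 higher and 2 lower of 9 tested in iCEC against pCEC (median log2 fold change -0.27). Pltp, a phospholipid transfer protein, stood at 51.9, 57.4 and 102 CPM in iCEC, 2.06, 7.68 and 5.66 CPM in pCEC, and 22.0, 11.4 and 7.42 CPM in pNCC. It was highest in iCEC, 5.10-fold higher in iCEC than in pNCC (adjusted p = 0.0107) and 12.2-fold higher in iCEC than in pCEC (adjusted p = 0.00907). Arl4c, a small GTPase raised by LXR, was 5.63-fold higher in iCEC than in pNCC (adjusted p = 0.0258) and 15.7-fold higher in iCEC than in pCEC (adjusted p = 0.0142). Abca7, a lipid transporter, was 3.66-fold higher in pCEC than in pNCC (adjusted p = 2.18e-05) and 2.72-fold lower in iCEC than in pCEC (adjusted p = 0.00885), and Smpdl3a, a phosphodiesterase, was 3.59-fold higher in pCEC than in pNCC (adjusted p = 0.000368). The LXR partners Rxra and Rxrb encode retinoid X receptors. Rxra was 2.06-fold higher in pCEC than in pNCC (adjusted p = 0.000488) and Rxrb was 1.55-fold higher in iCEC than in pNCC (adjusted p = 0.0349). The calls in these 6 lists were not repeated without single libraries.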

How the data were processed

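RNA sequencing (150-bp paired reads, NEBNext Ultra kit, per the labels' protocols) of 9 libraries gave 1 table of raw counts per gene symbol, as the authors deposited it. The submitters' processing notes name mm10 and edgeR. The aligner, the annotation and the strand setting are not given in the sources used here, so reads of overlapping genes may be split in ways unknown. Library totals of 27389292 to 47967113 counts, over 31906 symbols with a count, set the precision.

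Each comparison was fitted on its 6 libraries with edgeR 4.0.16 in R 4.3.3 (filterByExpr, TMM, robust quasi-likelihood test, 2-sided), with Benjamini-Hochberg adjustment over all genes tested, a threshold of 0.05 and SE from the log2 fold change and F. The fit was tested on simulated counts. DESeq2 1.42.0 was an alternative. CPM uses the deposited totals. CPM per kb, gene positions and overlaps use exons of GENCODE M21 (mm10), and promoters come from RefSeq tables of GRCm38.p6. No column was left out, and Zp4 of the marker lists was not among the symbols.

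The 29 genes, the 6 lists and the 8 marker lists were chosen with earlier results of these data known. All 29 genes are named, and from each other list up to 3 called genes per comparison with the smallest adjusted p, except 1 gene that is not reported here.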

Additional observations from a re-analysis of the deposited data

How the results depend on the processing

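The alternatives were scaling by DESeq2 size factors, DESeq2's Wald test, dropping the low-count filter or setting it at 1 CPM in 3 libraries, fitting all 9 libraries together, a replicate block, leaving out single libraries, and pCEC as its polyA library alone. Over these other than single libraries left out, single genes kept direction and side of the threshold in 167 of 174 cases in iCEC against pNCC, 174 of 203 in pCEC against pNCC and 178 of 203 in iCEC against pCEC. With no filter, 0 sterol genes were called lower in iCEC against pNCC, 12 higher in pCEC against pNCC, and 0 higher in iCEC against pCEC. The DESeq2 Wald test called 2 higher in iCEC against pCEC, and with all 9 libraries in one fit 2490 genes in all were called lower there. With pCEC as its polyA library alone, assumed to vary like the other group, 10 sterol genes were called higher than in pNCC, and in iCEC against pCEC 0 sterol genes and 0 genes in all were called in either direction (2529 genes and 7 sterol genes at an unadjusted p under 0.05 in edgeR). The causes were not tested.

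With single libraries left out, sterol genes called higher and lower ranged over 0 to 4 and 0 to 0 in iCEC against pNCC, 13 to 25 and 1 to 1 in pCEC against pNCC, and 0 to 2 and 2 to 10 in iCEC against pCEC. Genes in all called higher and lower ranged over 1093 to 3977 and 1229 to 3707, 4446 to 5247 and 4761 to 5440, and 533 to 2733 and 598 to 2241 in the same order. The log2 fold change took both signs in iCEC against pNCC for Acat2 (-0.45 to 0.43), Mvk (-0.44 to 0.24), Pmvk (-0.074 to 0.97), Mvd (-0.21 to 0.59), Fdps (-0.47 to 0.87), Lss (-0.44 to 0.55), Cyp51 (-0.64 to 0.39), Nsdhl (-0.22 to 0.76), Ebp (-0.086 to 0.12), Srebf1 (-0.28 to 0.18), Abcg1 (-0.70 to 0.38), Nr1h3 (-0.95 to 1.22), and in pCEC against pNCC for Hsd17b7 (-0.37 to 0.85) and Scap (-0.27 to 0.036). None of these genes was called in that comparison with all libraries. Ebp in iCEC against pNCC was 0.017 and turned to -0.031 with DESeq2 size factors, -0.031 with the DESeq2 Wald test, -0.0050 with no filter and -0.015 with all 9 libraries. Hsd17b7 in pCEC against pNCC was -0.045 and turned to 0.18 with the polyA library alone.

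Over all genes tested, the correlations of same-numbered libraries' deviations from their group means lay between -0.229 and 0.0648. Whether same-numbered libraries shared a batch or day is not given and was not tested. With the replicate block, 0 sterol genes were called lower in iCEC against pNCC, and 1429 and 1435 genes in all were called higher and lower. It called 23 sterol genes higher and 1 lower in pCEC against pNCC, and 0 higher and 3 lower in iCEC against pCEC, with 664 and 631 genes in all. Under the block Lss was 0.034 in iCEC against pNCC and Hsd17b7 was 0.20 in pCEC against pNCC.

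With 3 libraries a group, an exact permutation test of 1 gene cannot go below 0.1, so only the fits across all genes were used. Of the 18 synthesis genes, all 18 were highest in pNCC 3 among the pNCC libraries and 16 were lowest in iCEC 3 among the iCEC libraries. In iCEC against pNCC, 0 synthesis genes were called without pNCC 3 and 1 without iCEC 3. The part of this spread in which genes passed was not tested. RNA type and replicate cannot be told apart within pCEC, nor medium and cell kind in iCEC.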
